A study of Homo sapiens with 10 samples.

Results

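The 2 megabases on either side of a centromere are described here for chromosomes 1 to 12, 16, 17, 18 and 20 in irradiated K562 and HepG2 cells. On each of these 16 chromosomes the largest gap between successive 1-kb bins of the deposited signal tracks was taken as the centromere gap, and the bins retained in the tracks within 2 Mb of it were the members. The acrocentric chromosomes 13, 14, 15, 21 and 22, chromosome 19 and the sex chromosomes were left out. The rule gave 55497 bins of the 2820626 retained in all, in 32 flanks, each named by its chromosome and by p for the side before the gap and q for the side after it. The rule used positions only, no signal values. Gaps ran from 3.125 Mb on chromosome 12 to 24.06 Mb on chromosome 1, with 21.34 Mb on chromosome 9 and 11.31 Mb on chromosome 16 (hg19).

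γH2AX is the histone variant H2AX phosphorylated on its tail, which spreads over chromatin on both sides of a DNA double-strand break and recruits repair factors. Human centromeres are built on arrays of alpha satellite repeats, flanked by pericentromeric DNA that is rich in other satellites and in recent segmental duplications and is mostly packed as constitutive heterochromatin, marked by H3K9me3. H3K27me3, the mark that Polycomb repressive complex 2 deposits, is more typical of silent genes in facultative heterochromatin. Short reads from repeats cannot be placed uniquely, so genome builds and tracks have gaps at centromeres, and the flanks described here are the nearest sequence that the tracks cover.

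The libraries were made by CUT&RUN, in which a nuclease tethered to an antibody releases the DNA bound beneath it to be sequenced. The cells were K562, an erythroleukaemia line, and HepG2, from a hepatocellular carcinoma. A dose of 6 Gy was given by a cobalt-60 source. Libraries of irradiated cells were γH2AX (mouse antibody clone JBW301) in K562 after 24 h (n = 2), in K562 after 1 h (n = 2) and in HepG2 after 1 h (n = 1), and H3K27me3 (rabbit antibody C36B11) in K562 after 1 h (n = 1). Untreated cells gave H2AX libraries, 2 from K562 and 2 from HepG2. The title of the series asks how the epigenome and transcription relate to break recognition after radiation. No γH2AX library of untreated cells and no H2AX library of irradiated cells was analysed here, so irradiation and the target of the antibody change together in every comparison with H2AX. For the libraries titled H2AX the antibody given is one against histone H4, and the name H2AX is kept here from the titles. Whether replicates came from separate cultures is not stated, so the spread behind each p-value may be technical only. The tracks hold histone signal and no transcripts, and the identity of the lines was not checked with expression markers.

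Levels are given as mean depth divided by the mean of the library over all retained bins outside chromosome Y, so that 1 is the average of the genome. They were not corrected for DNA copy number, which can raise or lower the level of a flank in either line. Mean depth per base was 0.326 and 0.592 in K562 γH2AX at 24 h, 1.44 and 1.78 at 1 h, 0.521 in HepG2 γH2AX and 1.10 in H3K27me3. For H2AX it was 0.672 and 0.671 with K562 and 0.624 and 0.641 with HepG2. Steps of the depth values corresponded to reads of 60 bp in the K562 1 h γH2AX and H3K27me3 libraries and of 41 bp in the other 7, so in K562 the read length cannot be told apart from the group in a comparison of 1 h with H2AX or with 24 h. In the track of K562 24 h replicate 1, the highest mean depth in the 1 h libraries of a member bin with any signal was 1.64. That cut was taken from these same values, so by its definition replicate 1 read 0 in all 18156 member bins above it (32.7% of the members). Replicate 2 read 0 in 89 of them (0.490%). Replicate 1 was therefore left out of the tests, 24 h values are those of replicate 2 alone, and counts with replicate 1 are given where they differ. Members were more often empty than the genome as a whole. In the K562 1 h libraries 5.90% and 4.98% of the member bins read 0, against 3.45% and 3.09% of all bins. For K562 H2AX the shares were 3.44% and 3.35% of the members, against 2.0% and 1.97% of all bins. Bins with over 3 times the mean H2AX level in either line made up 0.344% of the members (191 bins) and 0.585% of the other bins. Whether repeat reads pile up there or DNA copy number is raised was not tested. Of these 191 bins, 65 lay on 20q, 36 on 16p and 35 on 20p.

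Retained bins covered all of 1q, 4p, 4q, 5q, 10p, 16q and 17q, and at the other end 48.7% of 9p and 10% of 9q. The chromosome 9 flanks had the lowest levels of the 32 in K562 24 h replicate 2, in both K562 1 h libraries, in both K562 H2AX libraries and in every HepG2 library. In HepG2 the level of 9p was 0.25 in γH2AX and 0.25 and 0.25 in H2AX, and that of 9q was 0.48 in γH2AX and 0.50 and 0.47 in H2AX. The K562 values follow. On 9p the level was 0.231 at 24 h, 0.124 and 0.104 at 1 h, and 0.20 and 0.208 in K562 H2AX. On 9q it was 0.294 at 24 h, 0.109 and 0.124 at 1 h, and 0.213 and 0.248 in K562 H2AX. Neither flank held the 50% of bins required for a test, which left 30 flanks.

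In the K562 1 h libraries the level of the 30 flanks ranged from 0.552 to 1.65 in replicate 1, with a median of 0.861, and from 0.543 to 1.96 in replicate 2, with a median of 0.932. The highest were 17q at 1.65 and 1.96, 20q at 1.58 and 1.84, 16q at 1.46 and 1.46 and 8p at 1.41 and 1.48. The lowest were 18p at 0.565 and 0.543, 3p at 0.552 and 0.639 and 20p at 0.603 and 0.553. K562 H2AX spanned a similar range, with medians of 0.846 and 0.847, and was highest on 10q (1.58 and 1.56) and lowest on 3p (0.447 and 0.481). HepG2 γH2AX ran from 0.601 on 1q to 1.59 on 6q, with a median of 0.985, and HepG2 H2AX had medians of 0.912 and 0.916. The order of the flanks was not that of K562: 20p, among the lowest in K562 at 1 h, stood at 1.55 in HepG2 γH2AX and at 1.67 and 1.67 in HepG2 H2AX. H3K27me3 varied most, between 0.0354 on 3p and 2.41 on 18q, with a median of 0.676.

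**Figure D1:**
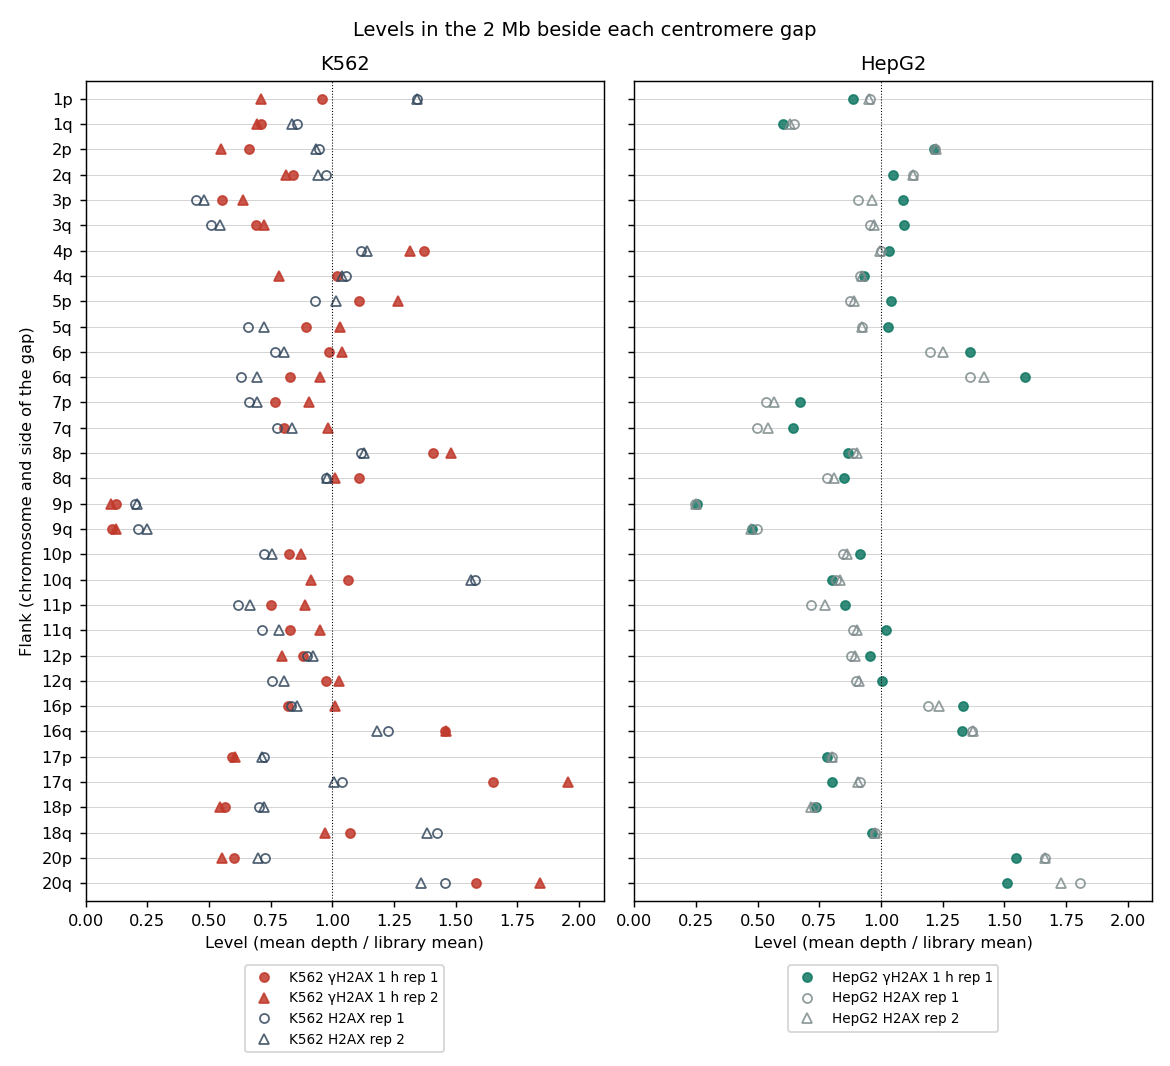
Level of each flank, from 1p at the top to 20q at the bottom, as mean depth divided by the library mean, with K562 on the left and HepG2 on the right. Filled symbols are γH2AX 1 h after 6 Gy, open symbols untreated H2AX, and each symbol is a library; in K562 the 1 h symbols of 17q (1.65 and 1.96) lie right of H2AX (1.04 and 1.01), those of 10q (1.06 and 0.912) lie left of it (1.58 and 1.56), and in HepG2 the symbols of most flanks lie close together.

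Signal was lower near the gap in all 9 libraries used. Within 0.1 Mb of the gap the median level over the 31 flanks with enough bins in both bands was 0.933 at 24 h, 0.767 and 0.846 at 1 h, and 0.730 and 0.704 in K562 H2AX. Between 1.5 and 2 Mb it was 1.04 at 24 h, 0.885 and 0.887 at 1 h, and 1.12 and 1.10 in K562 H2AX. The innermost band was the lower of the pair in 18 of 31 flanks at 24 h, in 21 and 20 at 1 h, and in 24 and 24 in K562 H2AX. HepG2 γH2AX had a median of 0.894 in the innermost band and 0.996 in the outermost, lower in 21 flanks, and HepG2 H2AX had 0.798 and 0.827 in the innermost band and 0.969 and 0.969 in the outermost, lower in 27 and 25. The steepest change was in H3K27me3, at 0.0683 within 0.1 Mb and 0.754 beyond 1.5 Mb, lower near the gap in 27 of 31 flanks. Bands within a flank and flanks within a library are not replicates, so these medians carry no test.

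Close to the gap γH2AX was slightly above H2AX. Within 0.1 Mb, over all 32 flanks, the median log2 ratio to the H2AX libraries of the same line was 0.24 at 24 h, above 0 in 26 flanks. In K562 at 1 h it was 0.17 and 0.21 by replicate, above 0 in 18 and 21 flanks, and 0.13 in HepG2, above 0 in 27. Over all 100-kb windows of the genome, 55.4% were above H2AX at 24 h, 52.4% at 1 h and 52.1% in HepG2. The 18 of 32 flanks of K562 1 h replicate 1 were near that share. Between 1.5 and 2 Mb the medians were 0.0082 at 24 h, 0.0097 and 0.13 at 1 h, and 0.040 in HepG2. In K562 at 1 h the excess was not particular to the innermost band. Its medians by replicate were 0.11 and 0.28 between 0.1 and 0.25 Mb and 0.087 and 0.195 between 0.25 and 0.5 Mb. They were 0.14 and 0.39 between 0.5 and 1 Mb, and 0.18 and 0.23 between 1 and 1.5 Mb. Nor was the excess confined to the innermost band at 24 h or in HepG2. Over the same bands outward the medians were 0.21, 0.15, 0.096 and 0.077 at 24 h, and 0.11, 0.094, 0.11 and 0.040 in HepG2. H3K27me3 had a median log2 ratio of -2.71 within 0.1 Mb and was above H2AX there in 1 flank of 32. With the 1 h replicates averaged in each flank before the ratio was taken, the median depended on the H2AX library: it was 0.18 with both, 0.10 without K562 H2AX replicate 1 and 0.23 without replicate 2.

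**Figure D2:**
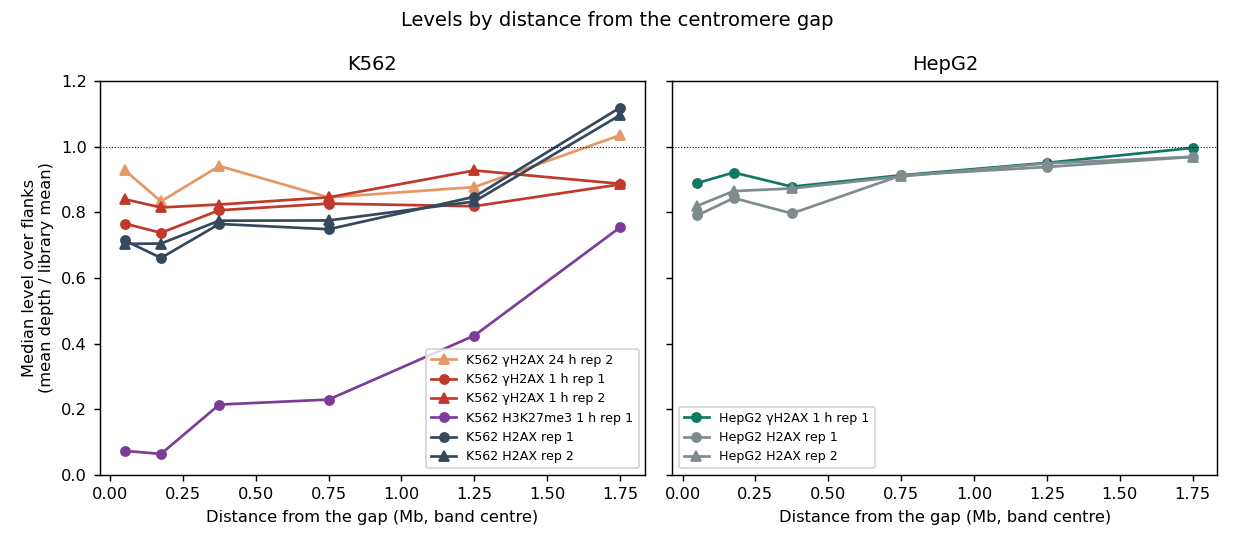
Median level over flanks, as mean depth divided by the library mean, in 6 bands of distance from the gap, with K562 on the left and HepG2 on the right; each line is a library. H3K27me3 lies at 0.0729 in the innermost band and 0.754 in the outermost, and both K562 H2AX lines pass from below the 1 h lines near the gap to above them beyond 1.5 Mb.

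Whether γH2AX at 1 h in K562 departed from the H2AX background was tested in each flank. After 1 h, 16 of the 30 flanks were higher than H2AX and 9 were lower, and every pair of libraries agreed in sign in all 25 (limma, Benjamini-Hochberg adjusted p under 0.05 over 1403 stretches of 2 Mb that tile the genome outward from the gaps). Of all stretches 35.6% were higher and 31.6% lower, 67.1% in all, so the count of lower flanks was near that share and the count of higher ones above it. The median log2 fold change was 0.21 over the flanks and 0.03 over all stretches. The 5 highest were 17q, 5q, 6q, 3q and 8p and the 5 lowest were 1p, 10q, 2p, 18q and 18p.

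The 17q flank (chr17:25341001-27341000) had levels of 1.65 and 1.96 in K562 at 1 h, against 1.04 and 1.01 in H2AX. Both 1 h libraries lay above both H2AX libraries, with a log2 fold change of 0.78 (± 0.08 SE; adjusted p = 0.00054 by limma). It was also the highest of all 30 flanks in each 1 h library, with H3K27me3 close to the genome average at 0.988.

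The next 3 flanks were above a low H2AX level. On 5q the levels were 0.892 and 1.03 at 1 h, against 0.657 and 0.724 in H2AX, with a log2 fold change of 0.45 (± 0.08 SE; adjusted p = 0.0027 by limma). On 6q they were 0.831 and 0.951 at 1 h, against 0.630 and 0.695 in H2AX (log2 fold change 0.40, limma adjusted p = 0.0039, and 0.052 without K562 H2AX replicate 1). On 3q they were 0.690 and 0.724 at 1 h, against 0.507 and 0.545 in H2AX (log2 fold change 0.39). All 3 kept their 1 h libraries above both H2AX libraries, and of these 5q alone reached the genome average, in 1 replicate. In contrast the H2AX level of 8p was itself above average, with 1.41 and 1.48 at 1 h, against 1.12 and 1.13 in H2AX (log2 fold change 0.35).

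Among the lower flanks, the level of 1p was 0.957 and 0.713 at 1 h, against 1.34 and 1.34 in H2AX, with a log2 fold change of -0.67 (± 0.11 SE; adjusted p = 0.0022 by limma). On 10q the levels were 1.06 and 0.912 at 1 h, against 1.58 and 1.56 in H2AX, with a log2 fold change of -0.65 (± 0.07 SE; adjusted p = 0.00065 by limma). On 2p they were 0.662 and 0.550 at 1 h, against 0.946 and 0.934 in H2AX (log2 fold change -0.60). These 3 flanks had H3K27me3 levels of 1.84, 1.81 and 1.61, all well above average.

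Both sides of chromosome 18 were lower as well. On 18q the levels were 1.07 and 0.972 at 1 h, against 1.42 and 1.38 in H2AX (log2 fold change -0.44), and on 18p they were 0.565 and 0.543 at 1 h, against 0.704 and 0.723 in H2AX (log2 fold change -0.34). Neither difference from H2AX was seen in the megabase next to the gap. In flanks 1 Mb wide the log2 fold change was 0.03 on 18q and -0.07 on 18p, and neither passed (limma adjusted p = 0.56 and 0.44). The other 15 flanks that passed had log2 fold changes from -0.28 to 0.35, and 5 flanks did not pass (4q, 7q, 8q, 12p and 16p).

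The calls depended on 2 libraries. The shares of all stretches that passed in the alternative fits are not given here, so how far the loss of calls was genome-wide cannot be told. Without K562 H2AX replicate 1, 16 flanks passed, 8 in each direction, and with K562 24 h replicate 1 in the fit none did, where 17q had an adjusted p of 0.073 with the same fold change.

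Taken as a single number per library, the members differed little from the rest of the genome in γH2AX and H2AX, and lay further below it in H3K27me3. The mean log2 level of the 536 member windows of 100 kb, minus that of the other 27072 windows, was -0.03 and 0.04 in the K562 1 h libraries, against -0.12 and -0.10 in K562 H2AX. The means were 0.0043 ± 0.050 at 1 h and -0.11 ± 0.013 in H2AX (SD, n = 2 each), a difference of 0.12 with no overlap. The exact permutation test, 2-sided, gave p = 0.33, the smallest that 2 against 2 libraries allow. The same value was 0.03 in HepG2 γH2AX, against -0.04 and -0.02 in HepG2 H2AX, and it was -0.08 in K562 at 24 h and -0.47 in H3K27me3.

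At the scale of 100 kb most flanks held both windows higher and windows lower than H2AX. Of 536 windows tested, 194 were higher at 1 h than in H2AX and 165 were lower, where 33.4% of all windows were higher and 37.8% lower, 71.2% in all (limma adjusted p under 0.05 over 27608 windows). The members' shares were 36.2% and 30.8%. Without K562 H2AX replicate 1, 234 windows passed, and with K562 24 h replicate 1 in the fit 85 did, 8 of them higher. Of 31 flanks with windows tested, 21 held both higher and lower windows, 9 held higher windows with no lower one, and 9p held lower windows with no higher one. The flanks without a lower window were 3p, 3q, 5p, 5q, 6p, 6q, 11p, 11q and 12q, where H3K27me3 levels were between 0.0354 and 0.208. On 9p all 3 windows tested were lower, on 10q 15 of 17 were lower and 1 higher, and on 2p 13 of 16 were lower and 2 higher.

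The 5 highest windows were on 17q and 20p. On 17q between 500 and 600 kb from the gap (chr17:25841001-25941000) the level was 2.46 and 3.24 at 1 h, against 1.01 and 0.986 in H2AX (log2 fold change 1.45 ± 0.14, SE, limma adjusted p = 0.00016). The window before it, from 400 kb, stood at 2.02 and 2.76 at 1 h, against 1.01 and 0.910 in H2AX (log2 fold change 1.26). The 17q windows from 1800 and 1000 kb had log2 fold changes of 1.15 and 1.11, and the highest level in any member window was 2.95 and 4.08 at 1 h, against 1.55 and 1.53 in H2AX, in the first of these. On 20p between 900 and 1000 kb (chr20:25184001-25284000) the level was 1.61 and 1.90 at 1 h, against 0.801 and 0.755 in H2AX (log2 fold change 1.12), inside a flank that was lower as a whole. H3K27me3 was at most 0.265 of its library mean in all 5 windows. None of the 5 passed with K562 24 h replicate 1 in the fit.

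The 5 lowest windows were on 17p, 2p and 18q. On 17p between 1700 and 1800 kb from the gap (chr17:20407001-20507000) the level was 0.0717 and 0.0620 at 1 h, against 0.367 and 0.356 in H2AX (log2 fold change -1.82 ± 0.09, SE, limma adjusted p = 0.00016). Its neighbours from 1500 and 1600 kb had log2 fold changes of -1.62 and -1.59. On 2p between 1500 and 1600 kb (chr2:88667001-88767000) the level was 0.423 and 0.262 at 1 h, against 1.21 and 1.14 in H2AX (log2 fold change -1.67). On 18q between 1800 and 1900 kb (chr18:20353001-20453000) it was 0.621 and 0.420 at 1 h, against 1.71 and 1.71 in H2AX (log2 fold change -1.65). H3K27me3 in these 5 windows was 1.17 to 3.78 times its library mean.

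The 17q flank showed this alternation within 2 Mb. Of its 20 windows, 16 were higher at 1 h than in H2AX, 3 were lower and 1 did not pass. γH2AX at 1 h formed broad blocks around 0.5, 1.1 and 1.8 Mb from the gap, with a single high window at 1300 kb (1.75 and 2.17). It fell below H2AX between 700 and 800 kb, with 0.527 and 0.394 at 1 h, against 0.846 and 0.753 in H2AX (log2 fold change -0.74), and between 1400 and 1500 kb, with 0.574 and 0.424 at 1 h, against 0.928 and 0.902 in H2AX (log2 fold change -0.83). H3K27me3 stood at 3.21 and 4.51 in those windows, and at 0.113 and 0.106 in the windows from 500 and 1800 kb. The relation was not without exception: the window from 1900 kb had H3K27me3 at 2.80 and γH2AX at 1.63 and 1.85, against 1.18 and 1.17 in H2AX (log2 fold change 0.55).

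**Figure D3:**
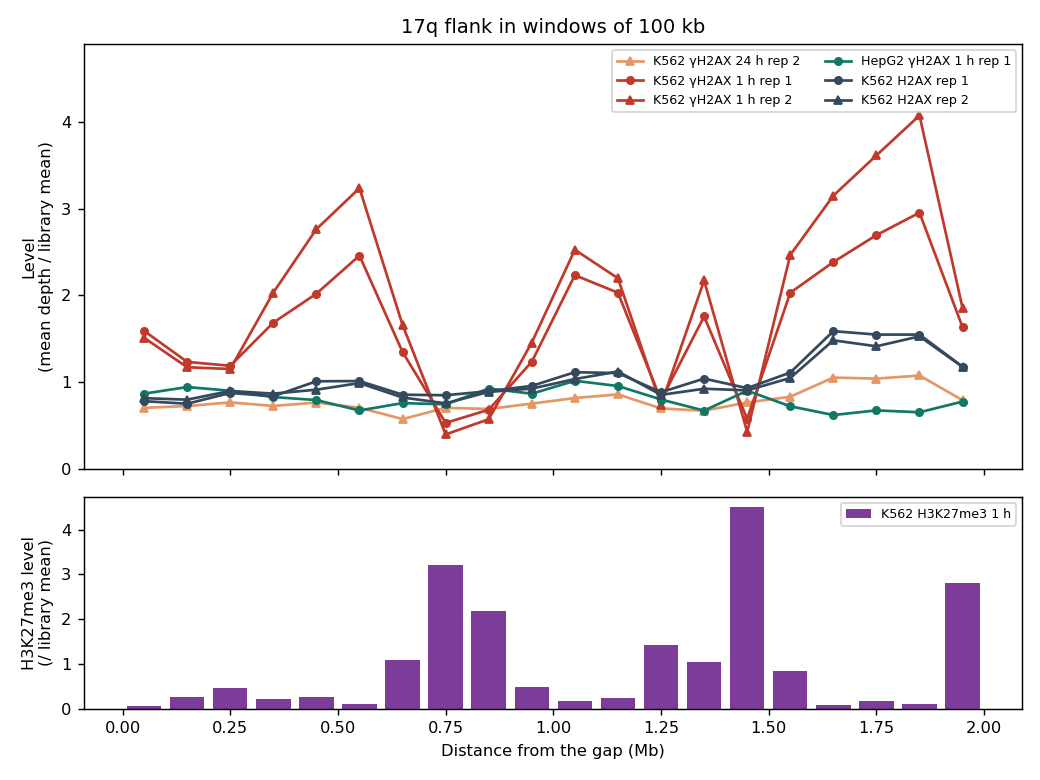
The 17q flank in windows of 100 kb by distance from the gap; the upper panel shows the level of γH2AX and H2AX libraries (mean depth divided by library mean, each line a library) and the lower panel that of H3K27me3. The K562 1 h lines peak at 2.46 and 3.24 in the window from 500 kb and at 2.95 and 4.08 in that from 1800 kb, and dip to 0.574 and 0.424 in the window from 1400 kb, where the H3K27me3 bar reaches 4.51; the 24 h and HepG2 lines stay near or below 1.

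Scaled to the library mean, H3K27me3 lay below H2AX in most flanks, and scaled by the median of ratios it did not. Over K562 H2AX, 17 of the 30 flanks were lower in H3K27me3 and 8 were higher with the library mean, where 52.4% of all stretches were lower and 33.9% higher, 86.3% in all (limma adjusted p under 0.05). The median log2 fold change was -0.65 over the flanks and -0.25 over all stretches. With median-of-ratios scaling, which raised the H3K27me3 library by 1.40 on the log2 scale relative to the median library, 17 flanks were higher and 11 lower. In windows of 100 kb, 365 of 536 were lower and 118 higher, where 61.6% of all windows were lower and 26.6% higher, 88.1% in all, with a median log2 fold change of -2.04 over the flanks and -1.26 over all windows.

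The flanks richest in H3K27me3 over H2AX were 20p, with 1.34 in H3K27me3, against 0.726 and 0.701 in H2AX (log2 fold change 0.87 ± 0.07, SE, limma adjusted p = 6.9e-06), and 2q, with 1.70 in H3K27me3, against 0.975 and 0.943 in H2AX (log2 fold change 0.79). The poorest were 7q, with 0.0460 in H3K27me3, against 0.775 and 0.836 in H2AX (log2 fold change -3.15), and 6q, with 0.0374 in H3K27me3, against 0.630 and 0.695 in H2AX (log2 fold change -3.03). The sides of a chromosome could differ, with 10q at 1.81 and 10p at 0.191, or lie together, with 20p at 1.34 and 20q at 1.58. Chromosomes 3, 5, 6, 7 and 11 had less than 0.25 of the genome average on both sides. With 1 library, the H3K27me3 tests borrow the spread of the groups that have 2.

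Most flanks poor in H3K27me3 were higher in γH2AX at 1 h than in H2AX, and most flanks rich in it were lower. Of the 12 flanks with H3K27me3 under 0.25 of its library mean, 11 were higher at 1 h than in H2AX and none lower, with a median log2 fold change of 0.33. Of the 12 flanks at or above the H3K27me3 library mean, 2 were higher (16q and 20q) and 9 lower, with a median of -0.27. Of the 6 flanks between these limits, 3 were higher and none lower. The split over all stretches was alike: 84.2% of all stretches under 0.25 were higher and 0.990% lower, and 14.9% of those at or above the mean were higher and 56.4% lower. Across the 30 flanks Spearman's rho between the H3K27me3 level and the log2 fold change was -0.70, and across all 1403 stretches it was -0.62; stretches share their libraries, and both marks of K562 at 1 h come from reads of 60 bp, so these are descriptions without a p.

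In windows of 100 kb the split was sharper in the H3K27me3-rich class. Of 146 flank windows at or above the H3K27me3 library mean, 120 (82.2%) were lower at 1 h than in H2AX and 9 higher, and the median log2 fold change was -0.95. Of 293 flank windows under 0.25 of that mean, 161 (54.9%) were higher and 6 lower, with a median of 0.34. Over all windows tested, 81.8% of the first class were lower and 60.4% of the second were higher. Of the flank windows 54.7% were under 0.25, against 44.1% of all windows.

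**Figure D4:**
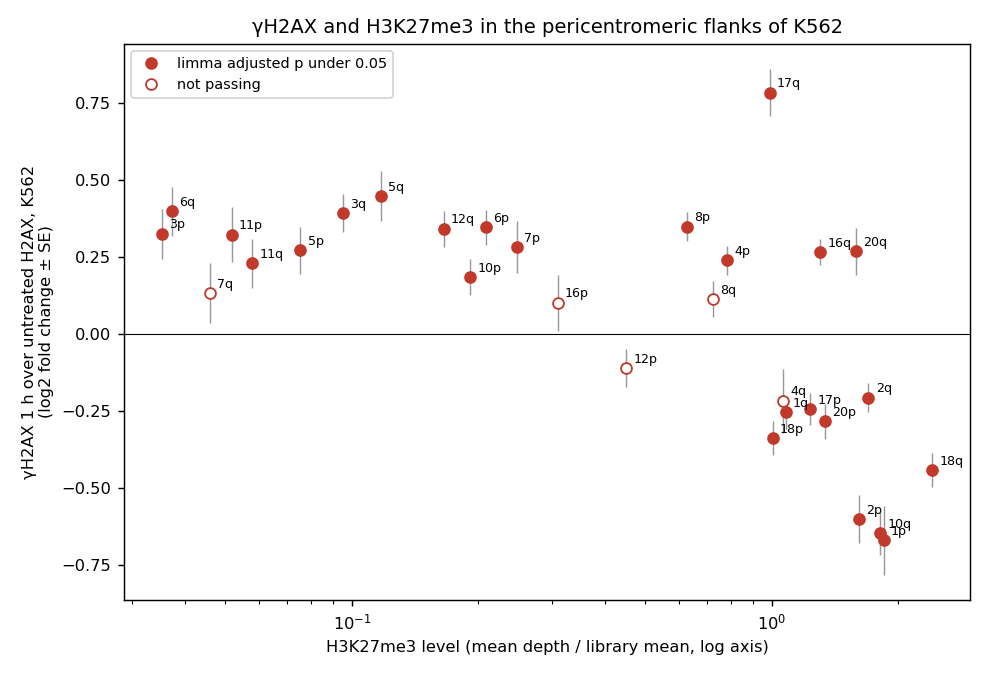
Log2 fold change of K562 γH2AX at 1 h over untreated H2AX (vertical axis, ± SE) against the H3K27me3 level (mean depth divided by library mean, log axis) of 30 flanks; filled points passed the limma test. Flanks left of 0.25 lie above 0, and right of 1 the flanks 16q and 20q lie above 0 and the others below; 17q, at 0.988, has the highest fold change.

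Higher γH2AX than H2AX was not confined to the sequence nearest the gap. A test of the inner against the outer megabase, chosen after the data were seen, compared the log2 fold change of 1 h over H2AX between these parts of 27 flanks with enough bins in each. It was higher in the inner megabase in 9 flanks and lower in 6, where 31.3% and 31.1% of all stretches passed in these directions, 62.4% in all (limma adjusted p under 0.05 over 1376 stretches). The largest inner excess was on 1q, at 1.28 ± 0.14 (SE, limma adjusted p = 0.0013), followed by 18q at 1.10 and 20p at 1.03. The largest outer excess was on 2q, at -0.86 ± 0.12 (SE, limma adjusted p = 0.0023), followed by 2p at -0.70 and 20q at -0.59. No single direction from the gap prevailed, and the median over the 27 flanks was 0.01. H3K27me3 over H2AX was higher in the inner megabase in 6 flanks and lower in 14, where 39.4% and 42.7% of all stretches were (82% in all). No flank passed for 24 h or for HepG2, where 0% of all stretches passed; at an unadjusted limma p under 0.05, 8 and 2 of 27 flanks and 214 and 54 of 1376 stretches did.

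After 24 h the 17q flank stood below the genome average in the replicate that could be tested. Between 24 h and 1 h, 11 of the 30 flanks differed, 6 of them higher at 24 h and 5 lower. Of all stretches 29.2% were higher at 24 h and 21.9% lower, 51.1% in all (limma adjusted p under 0.05), against 36.7% of the flanks. On 17q the level was 0.783 at 24 h, against 1.65 and 1.96 at 1 h, and the log2 fold change, taken as 1 h over 24 h, was 1.15 ± 0.09 (SE, limma adjusted p = 0.00075). On 20q it was 1.04 at 24 h, against 1.58 and 1.84 at 1 h (1 h over 24 h, log2 0.69). The flanks with the largest differences the other way were 1p, with 1.32 at 24 h, against 0.957 and 0.713 at 1 h (1 h over 24 h, log2 -0.65), and 10q, with 1.52 at 24 h, against 1.06 and 0.912 at 1 h (log2 -0.60). All 4 kept the 24 h library outside the range of the 1 h libraries. With only the libraries of these groups in the fit, 7 flanks passed.

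Set against H2AX, the 24 h library was higher in 8 flanks and lower in 5, where 27.7% of all stretches were higher and 24% lower, 51.7% in all (limma adjusted p under 0.05). It was higher on 6q, at 0.877, against 0.630 and 0.695 in H2AX (log2 fold change 0.38 ± 0.10, SE, limma adjusted p = 0.019), and on 11p, at 0.828, against 0.618 and 0.669 in H2AX (log2 fold change 0.34). It was lower on 20q, at 1.04, against 1.46 and 1.36 in H2AX (log2 fold change -0.43), and on 17q, at 0.783, against 1.04 and 1.01 in H2AX (log2 fold change -0.37, limma adjusted p = 0.019). The 1 h flanks 1p and 10q, both lower at 1 h, were at -0.02 and -0.04 here and did not pass. The count moved with the libraries in the fit: it was 22 without either K562 1 h replicate, 0 without K562 H2AX replicate 1, 5 without K562 H2AX replicate 2, 6 without either HepG2 H2AX replicate and 5 with K562 24 h replicate 1. None of the 4 flanks named here passed without K562 H2AX replicate 1.

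HepG2 γH2AX at 1 h lay close to HepG2 H2AX in the flanks. No flank passed the limma test, and of all 1403 stretches 0% passed; at an unadjusted p under 0.05, 4 flanks (13.3%) and 272 stretches (19.4%) did. The median log2 fold change was 0.07 over the flanks and 0.01 over all stretches. The lowest p-values were on 7p, with 0.673 in γH2AX, against 0.534 and 0.567 in H2AX (log2 fold change 0.27 ± 0.10, SE, limma adjusted p = 0.23), and on 5p, with 1.04 in γH2AX, against 0.876 and 0.890 in H2AX (log2 fold change 0.23 ± 0.09, SE, limma adjusted p = 0.25). The γH2AX library lay above both H2AX libraries in each. This rests on 1 γH2AX library and on the spread shared with K562, and some flanks passed when the libraries in the fit were changed. The share of all stretches that passed in those fits is not given here, so such calls are not read as a trait of the flanks.

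The log2 fold changes of the HepG2 library over its H2AX and of K562 at 24 h over its own H2AX, which share no library, had the same sign in 29 of the 30 flanks, 17 of them above 0 and 12 below. Spearman's rho between them was 0.90 over the flanks and 0.91 over all 1403 stretches, while that between HepG2 and K562 at 1 h was 0.42 and 0.34. These libraries were sequenced with 41-bp reads except K562 at 1 h, and the part of read length in the likeness was not tested.

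The response of K562 at 1 h over its H2AX and that of HepG2 over its own differed in 9 of the 30 flanks, 4 higher in K562 and 5 lower, where 14.7% of all stretches were higher and 17% lower, 31.6% in all (limma interaction, adjusted p under 0.05). The difference was largest on 17q, where the log2 fold change was 0.78 in K562 and -0.17 in HepG2, a difference of 0.96 ± 0.12 (SE, limma adjusted p = 0.012). On 20q it was 0.27 in K562 and -0.22 in HepG2, a difference of 0.49 ± 0.12 (SE, limma adjusted p = 0.021), and in flanks 1 Mb wide that difference was -0.02. It was lower in K562 on 10q, at -0.65 in K562 and -0.04 in HepG2 (difference -0.61), and on 2p, at -0.60 in K562 and -0.0059 in HepG2 (difference -0.59). Without either of the K562 H2AX replicates no flank passed, without K562 1 h replicate 1 there were 21, and with K562 24 h replicate 1 in the fit there were none.

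The H2AX level itself differed between the lines. The part of DNA copy number in this difference was not tested. K562 H2AX was higher than HepG2 H2AX in 9 flanks and lower in 15, where 35.4% of all stretches were higher and 41% lower, 76.3% in all (limma adjusted p under 0.05). It was higher on 10q, at 1.58 and 1.56 in K562, against 0.819 and 0.834 in HepG2 (log2 fold change 0.89 ± 0.07, SE, limma adjusted p = 1.9e-05), and on 7q, at 0.775 and 0.836 in K562, against 0.499 and 0.543 in HepG2 (log2 fold change 0.58). It was lower on 20p, at 0.726 and 0.701 in K562, against 1.67 and 1.67 in HepG2 (log2 fold change -1.17), and on 6q, at 0.630 and 0.695 in K562, against 1.36 and 1.42 in HepG2 (log2 fold change -1.02). Both of the H2AX replicates of each line lay apart from those of the other in these 4 flanks. With K562 24 h replicate 1 in the fit, 13 flanks passed.

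The deposited peak lists gave another view of the flanks, each called on a single library; folds are the authors' values. The K562 1 h lists held 833 and 929 peaks in the flanks, which was 15.01 and 16.74 per Mb of retained bins, against 14.99 and 16.46 per Mb elsewhere. Under a q-value of 0.05 there were 59 and 109, which was 0.874 and 0.807 times the density elsewhere. The density varied far more between flanks than between the flanks and the genome. It reached 60.5 and 63.5 per Mb on 16q (121 and 127 peaks), 42.5 and 64 on 17q (85 and 128 peaks), 43.6 and 50.7 on 8p and 51.5 and 41 on 4p, and no peak lay on 3p, 6q, 9p, 9q or 11q in either list. The 6q flank, among the 5 highest by fold change over H2AX at 1 h but below the genome average in level, held no peak. The highest folds in replicate 1 were 3.79 on 4p (chr4:48501577-48502353), 3.51 on 20p and 3.45 on 8p, and in replicate 2 they were 3.62 on 16q (chr16:48347888-48348923), 3.59 on 17q and 3.41 on 16q. The 24 h lists, of 8 and 13 peaks, held none in the flanks or the gaps.

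The HepG2 list was short and lay mostly inside the centromere gaps. Of its 170 peaks, 130 (76.5%) were centred in the gap of 1 of 10 chromosomes, 12 in the flanks, 14 on chromosome Y and 14 elsewhere. Chromosome 16 held 67 of them, all between positions 46385920 and 46435541, just short of the start of the 16q flank. Chromosome 10 held 22, chromosome 2 held 11 and chromosome 8 held 8. The median fold in the gaps was 7.54 and the highest 24.3. The 12 flank peaks were 5 on 2p, 4 on 10q, 2 on 9q and 1 on 8p, with folds up to 16.3 on 9q and 15.2 on 2p, and every one of them lay outside the retained bins. These 2 peaks were little longer than a 41-bp read (chr9:66800767-66800824 and chr2:89853210-89853267), and the single gap peak of chromosome 11 was also short (chr11:51580788-51580867). The K562 1 h peaks with the highest folds were much longer, as at chr4:48501577-48502353. The high folds of the HepG2 peaks named here therefore describe very short stretches. The lengths of the other gap peaks, among them the peak with the highest fold, are not given here. The share of stacked repeat reads in the HepG2 peaks was not tested. All flank peaks of the K562 1 h lists lay in retained bins and none in a gap, so the lists of the 2 lines do not cover the same sequence here, and the tracks hold no signal there against which to check the HepG2 peaks.

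**Figure D5:**
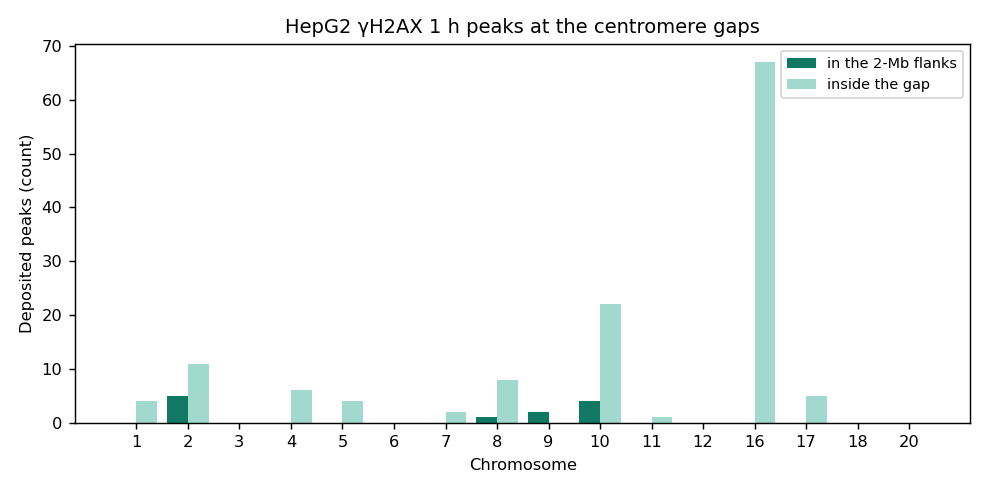
Number of deposited HepG2 γH2AX 1 h peaks in the 2-Mb flanks (dark bars) and inside the centromere gap (light bars) of each of the 16 chromosomes. Chromosome 16 has 67 peaks in its gap, chromosome 10 has 22 and chromosome 2 has 11, and 4 chromosomes have flank peaks.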

How the data were processed

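CUT&RUN tracks of γH2AX, H2AX and H3K27me3 in K562 and HepG2 were used. Per the submitters' processing notes reads were aligned to hg19, and BWA 0.7.12, SAMtools and MACS2 are named without settings. The deposited tracks hold signal as coverage, the mean read depth per base in 1-kb bins, unscaled. Whether this holds for K562 24 h replicate 1 is not known, as 35.7% of all bins read 0 in it, against 2.69% in replicate 2. The deposited peak lists give a fold enrichment (a ratio) and −log10 values of p and q per peak (p-value, q-value); what control the fold refers to is unknown here.

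Each value was divided by its library mean. Bins were averaged in stretches of 2 Mb and windows of 100 kb tiled outward from each gap on every chromosome but Y, kept with at least 50% of their bins and with H2AX of each line at 0.25 of the library mean or more. Log2(level + 0.05) was tested with limma 3.58.1 (R 4.3.3, mean-variance trend, 6 group means over 9 libraries, 3 residual degrees of freedom), with Benjamini-Hochberg adjustment over all stretches or windows and a threshold of 0.05, after a check on simulated data. The pseudocount understates changes of low levels. HepG2 γH2AX, H3K27me3 and 24 h have 1 library each in the fit and use the shared spread. The reads behind each track of the 9 libraries in the fit, from depth and read length, numbered 35.6 to 83.2, in units of 1e6. The track of K562 24 h replicate 1 gave 22.3, which may not be the reads of that library. Distance bands needed 20 bins per flank. Flanks named are the 5 highest and 5 lowest for K562 1 h over H2AX and the 2 highest and 2 lowest elsewhere, among those that passed with each pair of libraries agreeing in sign, or those with the 2 lowest p-values where none passed. Windows named are the 5 highest and 5 lowest, and other windows of 17q were chosen after their values were seen. A peak belongs to the place of its midpoint. Python 3.11.15, numpy 2.4.6, pandas 2.3.3 and matplotlib 3.10.9 were used. Members, named regions and alternatives were chosen with earlier results of these data known. No genome sequence or gene annotation of hg19 was used here.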

Additional observations from a re-analysis of the deposited data

Results flagged for a closer look

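The response at 1 h, as γH2AX over the H2AX of the same line, differed between K562 and HepG2 in 9 flanks (limma interaction, adjusted p from 0.012 to 0.046). These were 30% of the 30 flanks tested, near the 31.6% of all 1403 stretches that differed, so the count is not particular to the flanks. The log2 difference, K562 minus HepG2, was 0.96 on 17q, 0.49 on 20q, 0.39 on 8p and 0.31 on 16q, and it was -0.36 on 18p, -0.42 on 18q, -0.57 on 1p, -0.59 on 2p and -0.61 on 10q. The 4 flanks with a positive difference were those with the highest K562 1 h levels, which are themselves a term of the difference. H2AX itself also differed between the lines on 10q, 1p, 18q, 8p, 2p, 16q and 20q (limma adjusted p from 1.9e-05 to 0.0058), and the reads are 60 bp in K562 γH2AX and 41 bp in HepG2. The part of either in the difference was not tested.

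The HepG2 list holds 130 peaks centred in the centromere gaps, where the tracks have no bins and which enter no comparison. The 12 flank peaks of this list likewise lay outside the retained bins.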

How the results depend on the processing

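Of 504 values of the 32 named flanks under the alternatives, 464 kept direction and side of the threshold, 32 no longer passed, 6 newly passed and 2 reversed: 18q for 1 h over H2AX (0.035) and 20q between the lines (-0.016), both in flanks 1 Mb wide. Of 150 values of the named windows, 145 kept both and 5 no longer passed, all with K562 24 h replicate 1 in the fit. With that library the counts of flanks were 0 for 1 h over H2AX (25 without it), 5 for 24 h (13), 0 between the lines (9) and 13 for H2AX (24), and 85 windows passed (359). With only the compared groups in the fit, 7 flanks passed for 1 h over 24 h (11) and 19 for HepG2 (0). Leaving out each replicate gave 16 to 29 flanks for 1 h over H2AX, 0 to 22 for 24 h over H2AX, 0 to 6 for HepG2, 0 to 21 between the lines and 234 to 486 windows. The median over flanks of the log2 ratio of the averaged 1 h replicates to H2AX, within 0.1 Mb of the gap, was 0.18; it was 0.14 with a pseudocount of 0.2, 0.14 without bins over 3 times the H2AX mean, and 0.10 to 0.23 over the replicates left out. Under a q-value of 0.05 the K562 1 h lists had 59 and 109 flank peaks (833 and 929). The shares of all stretches or windows that passed under these alternatives are not given, so the counts do not set the flanks against the genome. The cause of these changes was not tested.

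The replicate numbers are not known to pair the samples: deviations of same-numbered libraries correlated at 0.18, 0.029 and 0.31 over the pairs of groups. With a replicate block, the flanks passing were 25 for 1 h over H2AX (16 higher, 9 lower), 14 for 1 h over 24 h, 10 for 24 h, 0 for HepG2, 7 between the lines, 25 for H3K27me3 and 25 for H2AX. The fit without K562 24 h replicate 2 was not run, since no 24 h library would be left.

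Depth was lowest, among the libraries tested, in HepG2 γH2AX (0.521) and K562 24 h replicate 2 (0.592), and its effect on the calls was not tested. With 2 libraries a group at most, and 1 in 3 groups, a flank that did not pass is not shown to be alike. Flank and window values cover the retained bins, so the satellite arrays inside the gaps are not analysed here.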
